A study of Mus musculus with 8 samples.

Results

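Ucp1, Fasn, Scd1, Cidec, Car3, Elovl3 and Ppargc1a, a set of brown fat and lipogenic genes, were followed in RNA of the mouse heart. The 7 genes were chosen by their measured ratios between the female and the male pools at 2 and 8 months in these same data, so those ratios are given as a description, with no test. Every row of the table whose platform symbol was 1 of the 7 genes was taken. This gave 9 of 9607 rows, with 2 probes each for Fasn and Car3, and each probe was kept on its own. All 9 rows were measured on all 8 arrays.

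The hearts came from female and male C57BL/6 mice, an inbred laboratory strain, aged 2 or 8 months, and the labels name no treatment or altered gene. Each of the 4 groups was 1 pool, made from the RNA of 6 whole hearts of that sex and age. Each age had 4 two-colour cDNA arrays on which its female pool was set against its male pool; replicates 1 and 3 carried the female pool in the dye Cy3 and replicates 2 and 4 in Cy5. The 4 arrays of an age measured 1 pair of pools again and counted as 1 replicate, so each SD below is technical spread and says nothing about the spread between animals. In pooled RNA, fewer cells of a type and less RNA per cell cannot be told apart.

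Ratios are on the log2 scale, female over male, so that a positive value means more of the transcript in the female pool. Each age has 1 value per row, which weights the 2 dye orientations equally. A row met the size rule at an age when this value was at least 1.5-fold in either direction with 1 sign on all arrays of that age. The Xist probe was positive and the probes of the Y-linked Eif2s3y and Kdm5d were negative on all 8 arrays, as the sex labels require. The table holds ratios and no intensities, so neither the level of a gene in a pool nor the presence of heart muscle transcripts could be read from it.

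Brown adipocytes burn fat to make heat. Their mitochondria carry Ucp1, an inner membrane protein that lets protons return without making ATP, and the coactivator PGC-1α, encoded by Ppargc1a, raises mitochondrial gene expression there and in heart muscle. Adipocytes of all kinds build fatty acids with fatty acid synthase (Fasn), desaturate them with Scd1 and store them in droplets that Cidec helps to enlarge. Heart muscle, in contrast, mainly oxidises fatty acids that it takes up from the blood.

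Proximal promoter sequences are shown for Ucp1 and Fasn, which had the highest female over male ratios of the set at 2 months. They are the 250 bases before the annotated start from RefSeq (assembly GRCm38.p6), whose promoter table matched Ucp1, Fasn, Cidec and Ppargc1a. The Ucp1 stretch lies at chr8:83290098-83290347 on the plus strand and the Fasn stretch at chr11:120824548-120824797 on the minus strand, each printed along the strand of its gene. Capitals mark matches to 7 motifs searched on both strands. They were the CCAAT box, the TATA box forms TATAAA and TATATA, the cAMP response element core TGACG, the nuclear receptor site AGGTCA, the GC box GGGCGG and the E-box CACGTG.
Ucp1: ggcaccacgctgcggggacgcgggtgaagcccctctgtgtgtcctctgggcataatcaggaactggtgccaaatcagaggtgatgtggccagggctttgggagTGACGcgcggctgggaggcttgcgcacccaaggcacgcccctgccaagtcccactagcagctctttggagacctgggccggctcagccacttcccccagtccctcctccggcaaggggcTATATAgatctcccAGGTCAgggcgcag
Fasn: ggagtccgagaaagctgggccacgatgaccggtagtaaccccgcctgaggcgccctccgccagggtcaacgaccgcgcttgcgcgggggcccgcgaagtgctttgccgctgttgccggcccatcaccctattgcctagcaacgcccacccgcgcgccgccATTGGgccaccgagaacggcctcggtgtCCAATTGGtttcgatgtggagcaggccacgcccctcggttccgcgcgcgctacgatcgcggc

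The Ucp1 stretch held TATATA from 28 to 23 bases before the start, AGGTCA from 14 to 9 and TGACG from 147 to 143, all on the strand of the gene. The Fasn stretch held CCAAT on its own strand from 62 to 58 bases before the start and on the other strand from 90 to 86 and from 59 to 55, the last overlapping the first. Ppargc1a held TGACG on the other strand from 49 to 45, and neither of the 2 annotated starts of Cidec had a match. Among all 32851 starts in the table, stretches of the same length held CCAAT in 33.8%, TGACG in 17.8%, AGGTCA in 14% and TATATA in 5.25%. The other TATA form, the GC box and the E-box had no match in these genes, and the shares were 12.4%, 32.7% and 6.02%. The matches describe letters in these windows and show no binding.

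At 2 months the transcripts of Ucp1, Fasn, Scd1, Cidec and Car3 were more abundant in the female pool, from 2.03-fold for 1 Car3 probe to 7.93-fold for Ucp1, whereas Elovl3 and Ppargc1a were near equal in the pools. By the size rule 7 of the 9 rows were higher in the female pool and none was lower. Among all 8343 rows that could be assessed, 2.36% were higher and 1.83% lower at 2 months. Since the genes were selected on these ratios, nothing is read from the difference between those shares.

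Ucp1, the uncoupling protein that defines thermogenic adipocytes, had ratios of 3.07, 3.23, 2.77 and 2.88 on replicates 1 to 4 at 2 months. All 4 arrays were high in either dye, and none overlapped with any array of the other 8 rows. The mean was 2.99 ± 0.21 (log2, SD, n = 4 arrays of 1 pool pair). This was the 9th highest value of the 8343 rows. At 8 months the 4 arrays read -0.32, 0.91, 0.24 and 0.54. They fell on both sides of 0 and below every array of 2 months. Their mean was 0.34 ± 0.52 (SD, n = 4 arrays), or 1.27-fold.

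Fasn, the enzyme that makes palmitate, was read by 2 probes with closely similar ratios at 2 months. Probe 11515 gave 2.30, 2.02, 2.10 and 1.69 on replicates 1 to 4. Probe 12004 gave 2.05, 1.73, 1.57 and 1.56, and the arrays of the probes overlapped. The means were 2.03 ± 0.25 and 1.72 ± 0.23 (SD, n = 4 arrays each), or 4.08-fold and 3.30-fold in favour of the female pool. Scd1, which converts stearate to oleate, was at 1.88, 1.91, 1.62 and 1.75, within the range of the Fasn probes. Its mean was 1.79 ± 0.13 (SD, n = 4 arrays), or 3.46-fold. A further row, probe 1247, is listed for both Scd2 and Scd1 and was not counted as a member. It read 0.89, 0.80, 0.76 and 0.57 at 2 months, below every array of the Scd1 probe, and met the size rule. At 8 months probe 1247 was at 0.23 ± 1.01, whereas the Scd1 probe was at -0.58 ± 1.00 (SD, n = 4 arrays each).

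Cidec, the lipid droplet protein of adipocytes, was at 1.94, 1.75, 1.75 and 1.40 on replicates 1 to 4 at 2 months. These arrays overlapped with those of Fasn and Scd1 and gave a mean of 1.71 ± 0.23 (SD, n = 4 arrays), or 3.27-fold. Car3, a cytosolic carbonic anhydrase that is abundant in fat and in slow skeletal muscle, was also higher in the female pool by both of its probes, which differed in size. Probe 1844 read 1.07, 1.02, 1.00 and 1.01, the narrowest spread of the set, with a mean of 1.02 ± 0.03. Probe 8010 read 1.81, 1.79, 1.73 and 1.20, with a mean of 1.63 ± 0.29 (SD, n = 4 arrays each). The arrays of the Car3 probes did not overlap with each other: replicate 4 of probe 8010, its lowest, was still above every array of probe 1844.

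The remaining genes are usually listed with brown fat but did not share this pattern. Elovl3, an elongase that makes very long fatty acids and is induced by cold in brown fat, was at 0.01, 0.16, -0.36 and -0.11 on replicates 1 to 4. Ppargc1a was at -0.08, -0.31, 0.11 and -0.63. Both genes had arrays on either side of 0, with means of -0.07 ± 0.22 and -0.23 ± 0.32 (SD, n = 4 arrays each). The dye orientations of Ppargc1a read 0.02 and -0.47, a wider gap than those of Ucp1, at 2.92 and 3.06. Of the chosen genes that are tied to brown fat, Ucp1, Elovl3 and Ppargc1a, Ucp1 alone met the size rule at 2 months, while Fasn, Scd1, Cidec and Car3, which did meet it, are genes that white and brown adipocytes share.

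**Figure D1:**
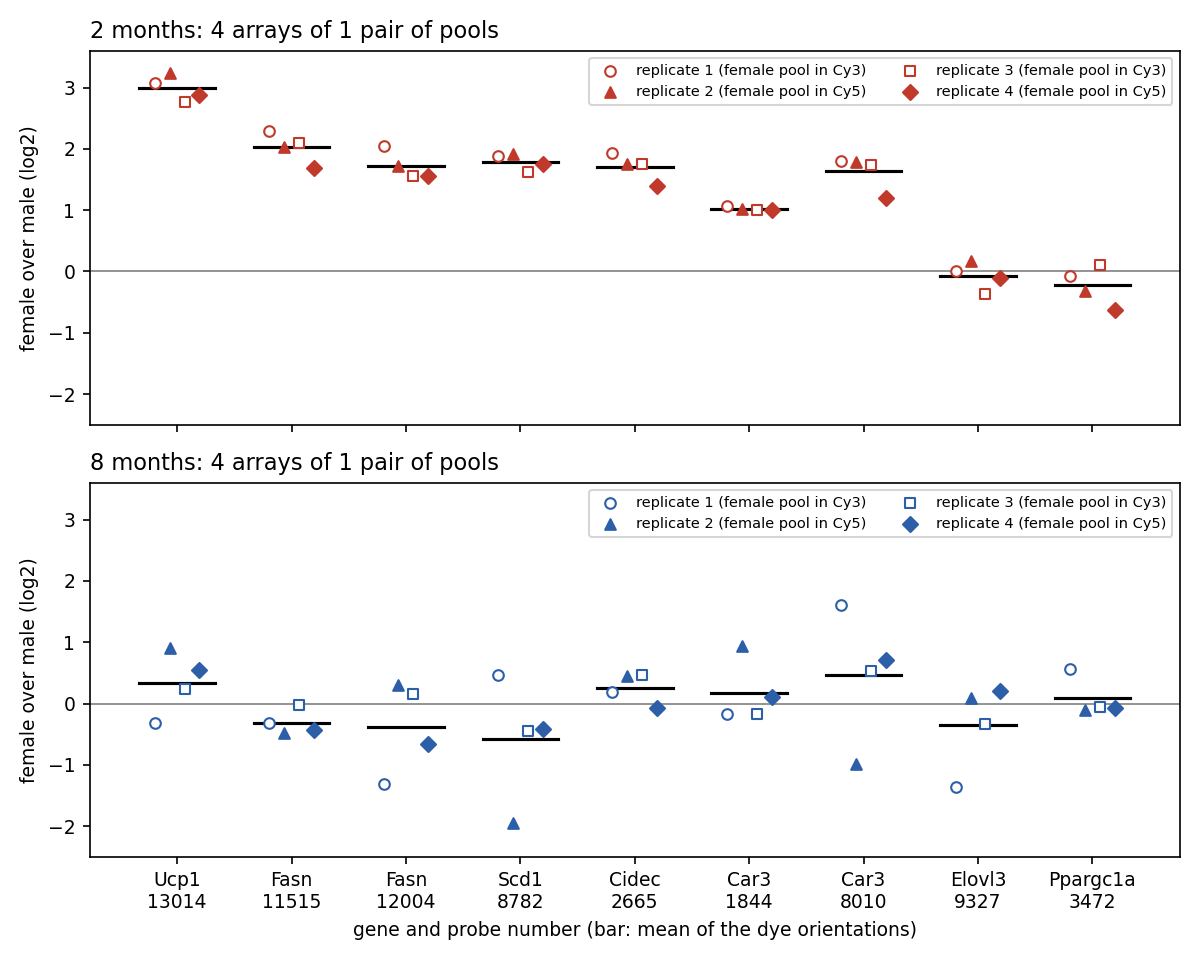
Female over male ratio (log2, vertical axis) of the 9 rows of brown fat and lipogenic genes, with 1 point per array and a bar for the mean of the dye orientations, at 2 months (upper panel) and 8 months (lower panel). At 2 months the 4 arrays of Ucp1 lie between 2.77 and 3.23 and those of Elovl3 and Ppargc1a lie around 0, while at 8 months replicates 1 and 2 spread widely for several rows.

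At 8 months none of the 9 rows met the size rule in either direction, against 1.68% higher and 1.32% lower among all rows. Their values lay between -0.58 for Scd1 and 0.46 for Car3 probe 8010, and 5 were positive and 4 negative. The median of the 9 rows was 0.09, beside 1.71 at 2 months; over all rows the medians were -0.03 and -0.02. Car3 probe 8010 met the rule, at 0.62, when 8 months was taken from replicates 3 and 4 alone, and at 0.89 without replicate 2. Scd1 met it in the other direction, at -0.81, without replicate 1.

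At 8 months replicates 1 and 2 carried a trend along the feature number, by which the array design orders its probes. The running median over 201 rows varied by 0.51 and 0.82 on these arrays (SD along the array, log2), against 0.04 to 0.08 on the other 6. Its sign on them was opposite at 8 of the 9 probes, whereas at Ppargc1a it stood at 0.11 and 0.44. At the Ucp1 probe it stood at -1.14 on replicate 1 and 1.02 on replicate 2, where Ucp1 itself read -0.32 and 0.91. At the Scd1 probe it stood at 0.45 and -1.02, where Scd1 read 0.46 and -1.94, and at Car3 probe 8010 at 0.52 and -0.98, where Car3 read 1.61 and -0.99. On replicates 3 and 4 the running median at the 9 probes stayed between -0.09 and 0.10.

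**Figure D2:**
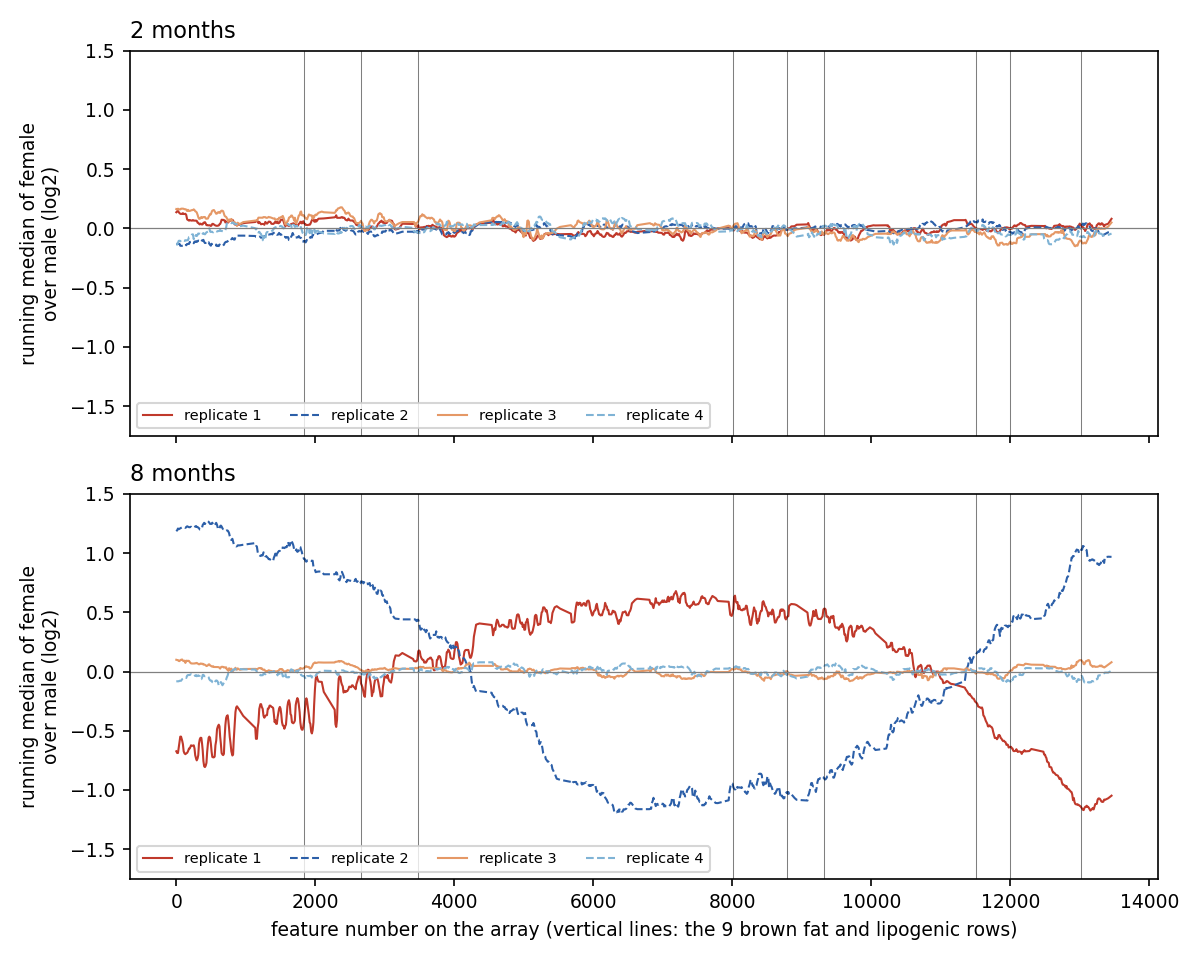
Running median of the female over male ratio (log2, vertical axis) over 201 rows against the feature number, for the 4 arrays of each age, with vertical lines at the 9 rows of brown fat and lipogenic genes. At 8 months replicates 1 and 2 bend in opposite directions, reaching -1.14 and 1.02 at the Ucp1 probe, while the other arrays stay close to 0.

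With the running median subtracted, the 8-month values were 0.36 for Ucp1, -0.28 and -0.30 for the Fasn probes, -0.43 for Scd1 and 0.10 for Cidec. Car3 was then at 0.04 and 0.57 by its 2 probes, Elovl3 at -0.25 and Ppargc1a at -0.06. None met the size rule, and the 2-month values moved by at most 0.05. Replicates 3 and 4 read Fasn probe 11515 at -0.02 and -0.42 and Scd1 at -0.44 and -0.41. For Fasn probe 11515 all 4 arrays of 8 months were negative, at -0.32, -0.48, -0.02 and -0.42, with a mean of -0.31 ± 0.20 (SD, n = 4 arrays). Probe 12004 did not share this sign on every array: it read -1.31, 0.30, 0.15 and -0.66.

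Cidec read 0.20, 0.44, 0.46 and -0.07 at 8 months, with a mean of 0.26 ± 0.25 (SD, n = 4 arrays), and Car3 probe 1844 read -0.17, 0.93, -0.17 and 0.10. Both rows had arrays on either side of 0. Car3 probe 8010 was the one row of the set above 0.5 on both replicates 3 and 4, at 0.53 and 0.71. Elovl3 read -1.37, 0.10, -0.34 and 0.21, and Ppargc1a 0.56, -0.10, -0.05 and -0.07, so that the extreme array of both was replicate 1.

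The ratio thus differed between the ages in the pools for the genes that were high at 2 months. A row met the size rule for this change when its 8-month value differed from that at 2 months by at least 1.5-fold and the arrays of the ages did not overlap. By this rule 6 of the 9 rows were lower at 8 months, and none was higher. Of all rows, 1.71% were lower and 1.63% higher. The change was -2.65 for Ucp1, -2.34 and -2.10 for the Fasn probes, -2.37 for Scd1, -1.45 for Cidec and -0.85 for Car3 probe 1844 (8 minus 2 months, log2). Car3 probe 8010 changed by -1.17 with overlapping arrays, since replicate 1 at 8 months read 1.61, and it met the rule with 8 months from replicates 3 and 4, at -1.01. Elovl3 and Ppargc1a were at -0.28 and 0.31. Probe 1247, listed for both Scd2 and Scd1, changed by -0.53 and did not meet the rule. With 1 pool per sex and age, this change has no test across animals, and it cannot tell a change in the female pool from a change in the male pool, since each array gives their ratio alone.

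**Figure D3:**
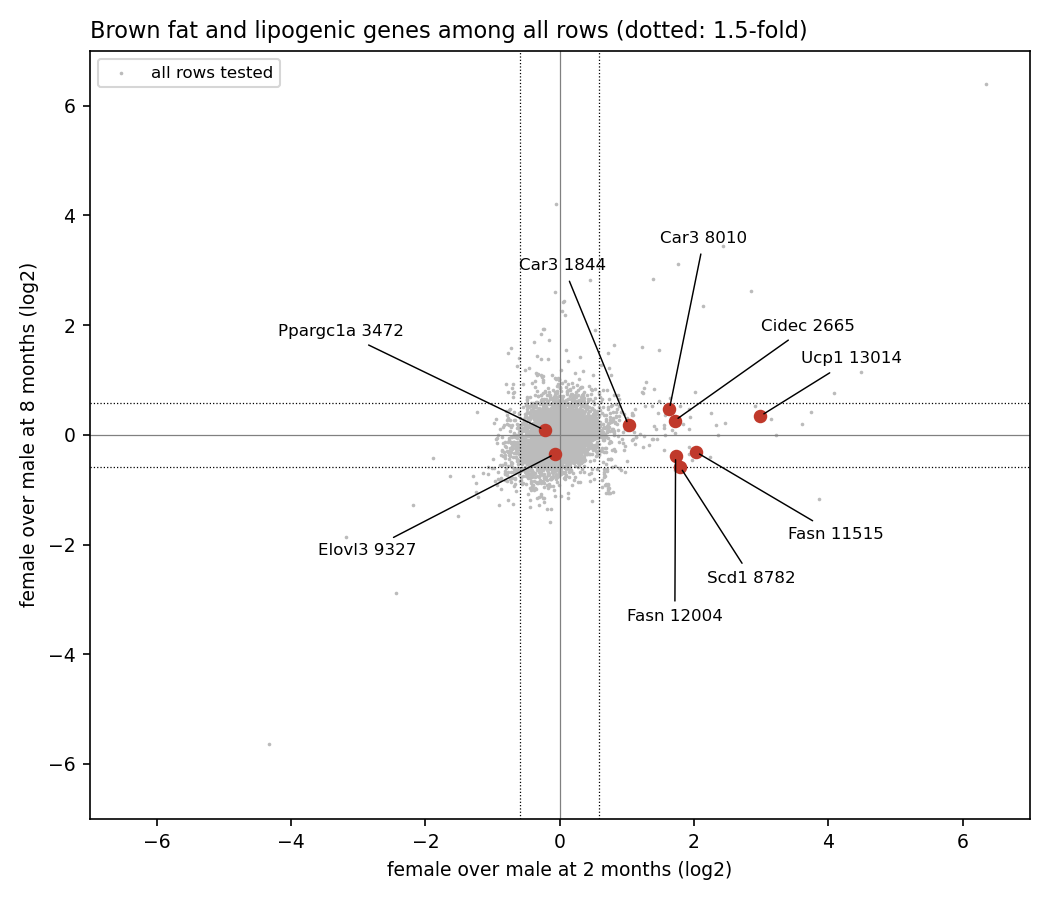
Female over male ratio at 2 months (horizontal axis) against 8 months (vertical axis), both log2, for 8343 rows (grey) and the 9 rows of brown fat and lipogenic genes (red, named with their probe number); dotted lines mark 1.5-fold. Ucp1, Fasn, Scd1, Cidec and Car3 lie to the right of the band at 2 months and within or close to it at 8 months, and Elovl3 and Ppargc1a lie in the cloud of all rows.

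Other genes of the same pathways were read from lists that were set with the 7 genes and earlier results known. The 9 lists on fat and lipids had 53 assessed rows beside the chosen ones. At 2 months 5 of the 53 were higher in the female pool by the size rule and none was lower, beside 2.36% and 1.83% of all rows. At 8 months 1 was higher and 2 were lower, beside 1.68% and 1.32%. The medians of the 53 rows were 0.03 and -0.09, near those of all rows at -0.02 and -0.03. Of the 53 rows, 5 were lower at 8 months than at 2 by the rule for the change and none was higher. Among all rows these shares were 1.71% and 1.63%. Across both ages, limma on the 2 pairs of pools called none of the 53 after Benjamini-Hochberg adjustment, and 6 had an unadjusted p below 0.05, as did 10.4% of all rows. Over the whole table this fit called 0.0599% of rows as higher and 0.036% as lower in females. Its error comes partly from the difference between the ages, so a ratio present at 2 months alone raises its own error. The fit therefore does not judge the ratios of a single age. Without replicate 1 at 8 months it called 152 rows, or 1.81% of those in that fit, among them Car2 and Car5b of the 53 (limma adjusted p = 0.0244 and 0.0251).

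Among lipogenesis genes beside Fasn and Scd1, 7 of 9 rows were positive at 2 months and 1 met the size rule. That row was Slc25a1, the mitochondrial citrate carrier that supplies acetyl units for fatty acid synthesis, at 0.87 ± 0.13 (log2, SD, n = 4 arrays) at 2 months and -0.03 ± 0.74 at 8 months. Mid1ip1, which aids acetyl-CoA carboxylase, was at 0.49 ± 0.18, and Acly, which splits citrate in the cytosol, at 0.44 ± 0.06. At 8 months Mid1ip1 was at -0.62 ± 0.33 and was lower by the size rule, and Acly was at 0.04 ± 1.00. The elongase gene Elovl5, the liver X receptor gene Nr1h3 and Mlxipl, a carbohydrate-responsive transcription factor, were at 0.25, 0.26 and 0.24 at 2 months, each positive on all 4 arrays. Malic enzyme Me1, which makes NADPH for the same synthesis, was at -0.03, Pklr at 0.03 and the desaturase gene Fads2 at -0.18. None of these 9 rows passed limma over both ages (adjusted p from 0.493 to 0.968), a fit that does not judge the 2-month ratios by themselves.

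Lipid droplet and lipolysis genes beside Cidec did not reach the size rule at 2 months in any of 7 rows. Lipe, hormone-sensitive lipase, was at 0.41 ± 0.45, Pnpla3 at 0.38 ± 0.20, Bscl2, encoding seipin, at 0.34 ± 0.11 and Mgll, monoglyceride lipase, at 0.16 ± 0.16 (SD, n = 4 arrays each). The droplet coat genes Plin4 and Plin2 were near 0, at 0.02 and -0.03, and Cideb, a relative of Cidec, was at -0.33 ± 0.26. At 8 months Plin2 was lower by the size rule, at -0.77 ± 0.80, but at -0.10 on replicates 3 and 4. The acyltransferase genes Agpat1 and Agpat3, the 2 measured genes of triglyceride synthesis, were at 0.00 and -0.30 at 2 months.

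Of 11 further rows of adipocyte identity, 2 met the size rule at 2 months, both higher in the female pool. These were Cebpa, a transcription factor of adipocyte differentiation, at 0.71 ± 0.25, and Rbp4, the plasma carrier of retinol, at 0.89 ± 0.40 (SD, n = 4 arrays each). Pparg, the nuclear receptor that directs adipocyte differentiation, was at 0.42 ± 0.08, and the fatty acid binding protein gene Fabp4 at 0.24 ± 0.07, each positive on all 4 arrays. Fabp4 was negative on all 4 arrays at 8 months, at -0.41 ± 0.35. Lpl, lipoprotein lipase, was at -0.01 at 2 months, the fatty acid transporter gene Cd36 at -0.21 and the glucose transporter gene Slc2a4 at 0.01. Fabp5, a further fatty acid binding protein gene, was at 0.26, and Agt and Sncg were at -0.08 and -0.10. Adipoq, Retn, Lep, Cfd and Plin1, which define adipocytes more strictly, were not analysed here, since no row with a single symbol matched them.

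Of 8 assessed rows of brown fat genes beside the chosen ones, 1 met the size rule at 2 months and 2 were lower at 8 months by the rule for the change. Slc27a2, an acyl-CoA synthetase of very long fatty acids, met both, at 0.76 ± 0.26 at 2 months and with a change of -0.88. The respiratory chain genes Cox7a1 and Cox8b, which muscle and brown fat share, were at -0.08 ± 0.04 and -0.02 ± 0.18, and Cpt1b, which admits fatty acids to mitochondria, was at -0.28 ± 0.45 (SD, n = 4 arrays each). Ebf2, a transcription factor of brown adipocyte precursors, was at 0.26 ± 0.21 at 2 months and was lower at 8 months, with a change of -0.64, and S100b was at 0.17 ± 0.10 at 2 months. The probes of Kcnk3, a potassium channel gene, were at -0.75 ± 1.71 and 0.02 ± 0.17 at 2 months. The first of them, probe 12962, differed by dye orientation. It read 0.48 and 0.97 with the female pool in Cy3 and -2.10 and -2.34 with it in Cy5. At 8 months the means over the 4 arrays were negative for all 8 rows, with a median of -0.31. Every row but that of Ebf2 still had an array above 0. On replicates 3 and 4, which lack the trend, the median was -0.18, and Slc27a2 and Kcnk3 probe 13172 were positive, at 0.18 and 0.10. Cidea, Prdm16, Dio2 and Zic1, which separate brown from white fat, were not analysed here, since no row with a single symbol matched them. The name brown fat thus rested on Ucp1 among the chosen genes, and Slc27a2 was the single further row of the list to meet the size rule at 2 months.

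The families of the chosen genes were also read. Slc25a14, the other measured gene of the uncoupling protein group, was at 0.10 ± 0.05 at 2 months. Among the carbonic anhydrases beside Car3, Car5b, an X-linked mitochondrial enzyme, was higher by the size rule at both ages, at 0.76 ± 0.25 and 1.09 ± 0.88, and Car2, the red cell and bone enzyme, was at 0.47 ± 0.26 and 0.84 ± 0.70. Neither passed limma over both ages (adjusted p = 0.183 and 0.283). Car4, Car5a, Car8 and Car11 lay between -0.12 and 0.17 at 2 months, and Car6 was at -0.44 ± 0.71. The elongases Elovl1 and Elovl2 were at -0.17 ± 0.12 and -0.18 ± 0.49 at 2 months, beside Elovl3 at -0.07. Elovl5 was at 0.25 ± 0.05, positive on all 4 arrays. In the PGC-1 group, Ppargc1b, the relative of Ppargc1a, was at -0.28 ± 0.18 at 2 months and -0.31 ± 0.19 at 8 months, negative on all 8 arrays. Its partners Esrra, Ppara and Tfam were at -0.18, -0.19 and -0.20 at 2 months, Sirt1 was at 0.13, and the 2 probes of Nrf1 were at -0.03 and 0.36. None of the 7 rows of this group met the size rule at either age.

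**Figure D4:**
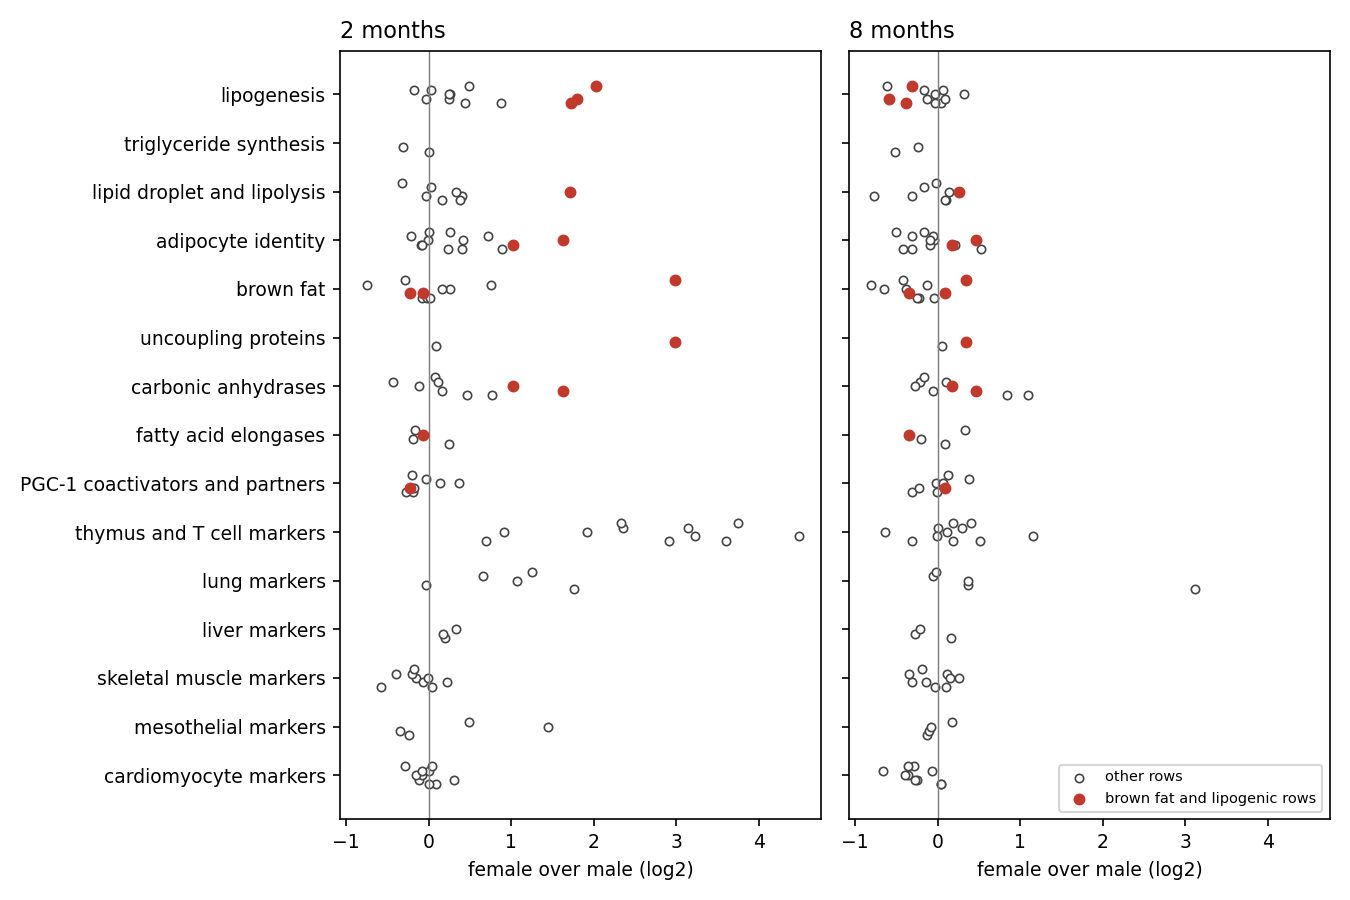
Female over male ratio (log2, horizontal axis) at 2 months (left) and 8 months (right), with 1 point per row for each gene list; brown fat and lipogenic rows are filled in red and other rows are open. At 2 months the red points of Ucp1, Fasn, Scd1, Cidec and Car3 lie apart from most other genes of their lists, and the thymus and T cell markers lie at 0.69 to 4.48.

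Some markers of other tissues were also higher in the female pool at 2 months. At 2 months all 11 rows of the thymus and T cell list were higher in the female pool by the size rule, between 0.69 and 4.48 with a median of 2.91. Rag1, which recombines antigen receptor genes in thymocytes, was at 4.48 ± 0.60, and Ccl25, a chemokine of thymic stroma, at 2.91 ± 0.21 (SD, n = 4 arrays each). At 8 months the median of the list was 0.19. Rag1 was still higher by the size rule then, at 1.15 ± 0.90 (SD, n = 4 arrays). Foxn1, a further gene of the list, was lower by it, at -0.63 ± 0.81 (SD, n = 3 arrays). By the rule for the change all 11 rows were lower at 8 months, against 1 of the 5 rows of the lung list and 1.71% of all rows. The lung list had 4 of 5 rows higher at 2 months: Sftpc, surfactant protein C, at 1.76 ± 0.31, with Scgb3a1 at 1.26, Sftpd at 1.07 and Scgb1a1 at 0.66, while Ager was at -0.04. Sftpc stayed high at 8 months, at 3.12 ± 1.65, when Ucp1, Fasn, Scd1, Cidec and Car3 did not meet the rule. Of the mesothelial and epithelial markers, Krt8 was at 1.45 ± 0.49 and Krt19 at 0.48 ± 0.07 at 2 months. Msln and Wt1, which define mesothelium, were at -0.23 ± 0.56 and -0.35 ± 0.37, each with arrays on either side of 0. Msln read 0.19 and 0.29 with the female pool in Cy3 and -0.55 and -0.86 with it in Cy5. The part of these tissues in the ratios of the fat genes was not tested.

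None of 9 skeletal muscle rows, most of them genes of fast fibres, met the size rule at either age, and the part of muscle in the Car3 ratio was not tested. Their median was -0.15 at 2 months, with Acta1, skeletal alpha-actin, at -0.58 ± 0.15 and Tnnt3, a fast troponin, at 0.22 ± 0.36. Acta1 was at 0.11 ± 0.52 at 8 months and higher than at 2 months by the rule for the change, and Atp2a1, the calcium pump of fast fibres, was at -0.40 ± 0.08 at 2 months. None of 10 cardiomyocyte rows met the size rule, with a median of -0.04 at 2 months and -0.28 at 8 months. On the 8-month arrays that lack the trend along the feature number, the median was -0.085. There Atp2a2 read 1.23 in one dye orientation and -1.33 in the other. Every row but those of Nppa, Ryr2 and Myl3 probe 12640 had opposite signs in the dye orientations on these arrays. At 2 months 5 of the 10 were positive and 5 negative: Nppa, the atrial natriuretic peptide gene, was at 0.30 ± 0.19, and Myh6 and Actc1, the myosin and actin of heart muscle, were at -0.28 and -0.08. The liver markers Apoa1, Apoa2 and Ttr were at 0.17, 0.33 and 0.20. These ratios are relative to all probes of an array and give no share of any tissue in a pool.

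The genes with the most similar pattern were found for each of the 9 rows by Pearson correlation over the 8 array ratios with 6128 other rows. All points come from 2 pairs of pools, so the correlations are a description. For Ucp1 the nearest 5 were Rag1, Gm6091, Scgb3a1, Ccl25 and Trgv2, with r from 0.973 to 0.982. Fasn probe 11515 and Cidec were near each other, at r = 0.981, and both had T cell genes among their nearest 5. For Scd1 the nearest was Fabp4, at r = 0.99. For Ppargc1a the nearest 5 were Mrps12, Tsc22d1, Nolc1, Pdpk1 and Dpf3, all within 593 features of its own probe. The ratios used here still held the trend on the 8-month arrays. Of the 35 places held for the 7 rows that were high at 2 months, 12 went to rows within 1000 features. Of all rows compared, 10.8 to 14.9% lay that near. The part of the trend in these correlations was not tested.

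With the running median subtracted, a choice made after the data were seen, the nearest genes changed. Of the same 35 places, 3 were within 1000 features, 7 went to other genes of the set instead of 2, and 1 went to the thymus and T cell list instead of 10. The set was chosen by these same ratios, so its genes resemble each other by selection and nothing is read from their nearness. Ucp1 and Scd1 were nearest to each other, at r = 0.997, as were Cidec and Fasn probe 11515, at r = 0.992. Slc25a1, the citrate carrier, was among the nearest 5 for Ucp1, Scd1, Cidec and Fasn probe 11515, with r from 0.978 to 0.984. Gpd2, the mitochondrial glycerol-3-phosphate dehydrogenase that brown fat holds in abundance, was among the nearest 5 for Ucp1, Scd1 and Fasn probe 11515, at 0.95 at 2 months and -0.27 at 8 months. Genes outside the fat and lipid lists were nearer still. Usp2 stood above Slc25a1 and Gpd2 for Ucp1 and Scd1, at r = 0.99 each. Vamp1 stood above Slc25a1 for Fasn probe 11515 and Cidec, also at r = 0.99 each. Elovl3 and Ppargc1a had none of the other chosen genes among their nearest 5.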

How the data were processed

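The data were 8 two-colour Agilent cDNA arrays of pooled heart RNA. The deposited values are log10 ratios of Cy5 over Cy3, written by Agilent Feature Extraction (7.1.1 per the labels); further normalization and probe sequences are not given in the sources used here. Exact zeros, 6.38 to 13.9% of values per array, counted as missing. Log10 ratios were converted to log2, with the sign set so that all arrays read female over male. Depth does not apply to arrays; their number limits the precision.

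Symbols came from the platform annotation, updated through the RefSeq table of GRCm38.p6: of 9607 rows, 6671 had 1 symbol (6600 matched RefSeq), 400 had several and 2536 none. Rows with at least 3 of 4 arrays per age in both dye orientations were assessed (8343). The female over male ratio averaged over both ages was tested against 0 with limma 3.58.1 in R 4.3.3 (lmFit and eBayes, two-sided, n = 2 pool pairs, 1 residual degree of freedom, adjusted p below 0.05 over all rows). The code was tested on simulated data.

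The members and lists were chosen with earlier results of these data known. Named were the 9 rows, the measured genes of the 9 fat and lipid lists, and examples from the other lists. From those, all genes were named where at most 5 were measured, otherwise only some of the 4 largest ratios per age. Of the 5 rows nearest in pattern to each chosen row, only some were named. Lhx8, Tbx15 and Elovl4 were not assessed. Alternatives covered zeros, centring, scaling, the trend, averaging, filters and left-out arrays.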

Additional observations from a re-analysis of the deposited data

Results flagged for a closer look

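Over 122 groups of 4 arrays from 62 rows of the fat and lipid genes, 5 held an array whose gap to its neighbour exceeded Dixon's 95% critical value, and chance gives about 1 in 20. Car3 probe 8010 had its lowest 2-month array at 1.20 (replicate 4, log2 female over male), and Ppargc1a its highest 8-month array at 0.56 (replicate 1). At 2 months Agpat1 read 0.40 on replicate 3, Elovl1 read -0.35 on replicate 4 and S100b read 0.31 on replicate 4.

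Fasn probe 11515, Mid1ip1 and Fabp4 were positive on all 4 arrays of 2 months and negative on all 4 of 8 months. The ratio changed by -2.34, -1.10 and -0.65 between the ages (8 minus 2 months, log2), and these differences were not tested.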

How the results depend on the processing

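With 1 pair of pools at each age, no comparison within an age has a test, and 2 of the 4 arrays behind the 8-month values carry a trend. At 2 months, 7 chosen rows were higher under every alternative run on probes; with probes averaged by symbol it was 5 of 7 genes. At 8 months none met the size rule, but 1 did from replicates 3 and 4 only, and the count ran from 0 to 1 with single arrays left out. The count of lower rows between the ages was 6 and ran from 5 to 7. The limma fit over both ages called 8 rows (869 at an unadjusted p below 0.05), and 0 with exact zeros kept (934 unadjusted), 5 with arrays centred, 3 with arrays scaled to 1 interquartile range, 4 with the trend removed, 1 with the median of the arrays and 1 with replicates 3 and 4 only. With single arrays left out it called 4 (without replicate 4 of 2 months) to 152 (without replicate 1 of 8 months), and 112 without replicate 4 of 8 months; the cause was not tested. Of 459 further values of the chosen rows, 456 moved by less than the technical spread and 3, all of Car3 at 2 months, by more. This count is no measure of robustness. Several alternatives leave the chosen rows unchanged, since these had values on every array. Leaving out 1 array always moves a mean of these rows by less than its SD. No paired analysis was possible because the replicate numbers name technical arrays of 1 pair of pools per age.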
